A study of Mus musculus with 2 samples.

Results

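The genes described here are Hsp90ab1, Ppia, Actb and Tuba1b, a pair of protein-folding genes and a pair of cytoskeleton genes that the array printed many times over. They were taken by transcript accession: NM_008302.3 for Hsp90ab1, NM_008907.1 for Ppia, NM_007393.3 for Actb and NM_011654.2 for Tuba1b. Each accession had 1 probe in 20 spots per array, so the 4 genes occupied 80 of the 62513 spots, and 4 of the 59709 probes that were neither controls nor named as negatives. Left kidneys of male mice were compared with right kidneys on 1-colour Agilent arrays, 1 array per side. Each RNA sample was read here as a pool of 3 kidneys, although the wording of the series description does not settle this. No treatment, strain, genotype or age was given for either group. Cell type makeup could not be checked, because 0 of 32 kidney, blood, adrenal and adipose marker genes had a probe with a gene name. Only 116 of the 59709 probes had such a name, given through a RefSeq accession.

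Hsp90ab1 encodes HSP90 beta, the constitutive cytosolic form of the HSP90 chaperone, an ATP-driven dimer that helps kinases, steroid receptors and other client proteins reach their active shape. Ppia encodes cyclophilin A, a peptidyl-prolyl isomerase of the cytosol and the protein that cyclosporin binds. Actb encodes beta-actin, a subunit of the actin filaments that support the microvilli of kidney tubule cells and the foot processes of podocytes. Tuba1b encodes an alpha-tubulin, which pairs with beta-tubulin to build microtubules, including those of the primary cilium. Actb, Ppia and tubulin genes are common reference genes for measuring other transcripts. Of the 61 further genes of the HSP90, cyclophilin, actin and tubulin families listed as context, 0 had a named probe. Their close relatives, such as Hsp90aa1, Actg1 and Tuba1a, therefore have no value here, although probes without a name were not matched to genes. The probes' own sequences were not used here, so how well each probe tells its gene from a near-identical relative could not be examined.

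All 4 genes gave strong signal in both kidneys. The processed signal of an array is its spot brightness after the scanner software has removed background and smooth trends across the surface. Every spot of the 4 genes was well above background, none was saturated, and the brightest left and right spots reached 20.1% and 18.5% of the saturation value. Left spots of these genes lay between 30286 and 156119 units, and right spots between 20092 and 144653. For scale, the 75th percentile of all transcript spots was 436.5 units in the left kidney array and 435.4 in the right one.

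Ranked among all probes by mean log2 signal, with rank 1 the brightest, the 4 genes kept nearly the same places on both arrays. Ppia, the cyclophilin, ranked 90 of 59704 on the left array, and 108 of 59705 on the other. Hsp90ab1 ranked 951 and 1078, Tuba1b 1319 and 1323, and Actb 1667 and 1762. Thus 99.8% of probes were dimmer than Ppia on either array, 98.4% and 98.2% were dimmer than Hsp90ab1, 97.8% than Tuba1b on either array, and 97.2% and 97.0% than Actb. These are ranks of probe signal. Probes differ in binding and transcripts in length, so the order of the 4 genes does not give the order of their transcript numbers.

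A rank is unaffected by any scaling of a whole array, and the spread of the spots gives it a range. Had Hsp90ab1 been read in a single spot, its left rank would have lain between 923 and 967 and its right rank between 1041 and 1268. These ranges of the chaperone gene did not meet. Ppia would have had left ranks of 48 to 119 and right ranks of 71 to 227, and Tuba1b 1264 to 1396 and 1261 to 1532. Actb would have ranked 1623 to 1759 and 1721 to 2240. The left and right ranges of these 3 genes overlapped. No such ranges are given here for the other genes with replicate spots, so how common separate ranges are on these arrays is not known.

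**Figure D1:**
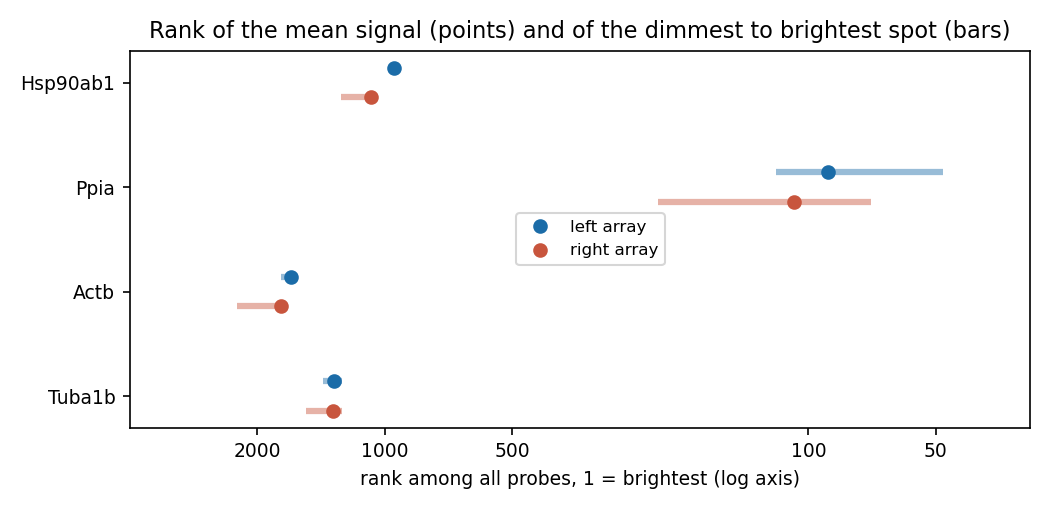
Rank of each gene among all probes on the left (blue) and right (red) array, on a log axis with the brightest probes to the right; points are ranks of the mean over unflagged spots and bars run from the dimmest to the brightest of 20 spots. Ppia lies near rank 100 and the other genes between 923 and 2240, and the left and right bars are apart for Hsp90ab1 alone.

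Hsp90ab1 stood out by a clear gap between the arrays. Its 20 left spots ran from 63241 to 66627 units with a median of 64061, and its 20 right spots from 44199 to 55354 with a median of 53265. Every left spot of this chaperone gene was therefore brighter than every right spot. Actb had the same order with hardly any gap. Its left spots ran from 30286 to 34610 (median 33151) and its right spots from 20092 to 30205 (median 29097). After each array was scaled to its 75th percentile, the dimmest left and the brightest right spot of this actin gene both stood at 6.12 on the log2 scale. On this scale Hsp90ab1 and Actb were the 2 of 14 genes with replicate spots above background whose left and right spots did not overlap, a share of 14.3%. With median scaling 4 of the 14 did not overlap, Gusb and G6pd2 being the others. With quantile normalization 11 of 20 right Actb spots exceeded the dimmest left one, with cyclic loess 10, with normexp background correction 2 and with the signal before detrending 1. No right Hsp90ab1 spot exceeded the dimmest left one under any of these 5 settings. Ldhal6b, also printed 20 times, was not above background and is left out of this count.

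Ppia and Tuba1b overlapped between the arrays. Left Ppia spots ran from 139625 to 156119 units (median 147033) and right ones from 119473 to 144653 (median 138502). Of its right spots, 8 of 20 were brighter than the dimmest left spot on the scaled log2 signal. Left Tuba1b spots ran from 41393 to 47005 (median 44684) and right ones from 35440 to 44624 (median 43042). Here 15 of 20 right spots exceeded the dimmest left one, so the alpha-tubulin gene had the largest overlap of the 4.

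**Figure D2:**
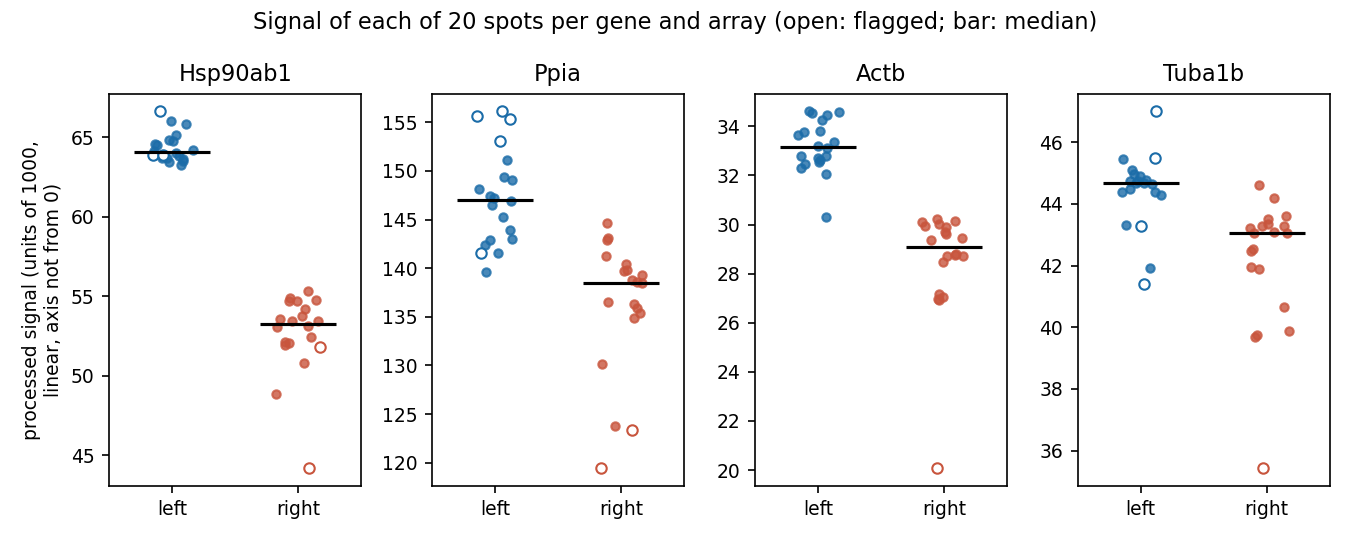
Processed signal in units of 1000 for each of 20 spots per gene on the left (blue) and right (red) array, with open circles for spots flagged as outliers and bars at the medians; each panel has its own linear axis that does not start at 0. Left and right spots are apart for Hsp90ab1 and barely apart for Actb, and overlap for Ppia and Tuba1b.

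Spots at the same place on the 2 arrays were then paired, and pairs with an outlier flag on either array were left out. The log2 difference of scaled signal, left minus right, was 0.26 ± 0.04 for Hsp90ab1 (SD, 16 spot pairs), or 1.20-fold. It was 0.20 ± 0.07 for Actb (19 pairs, 1.15-fold), 0.09 ± 0.05 for Ppia (14 pairs, 1.06-fold) and 0.06 ± 0.05 for Tuba1b (15 pairs, 1.04-fold). All pairs used were higher on the left for Hsp90ab1, Actb and Ppia, and 13 of 15 for Tuba1b. This was not particular to them, since 18 of 18 pairs were higher on the left for each of Gusb, G6pd2 and Rpl13a. The remaining replicated genes above background ran from 2 of 19 pairs (Tfrc) to 15 of 17 (Gk). The difference of Hsp90ab1 was 6.72 times its spot SD, that of Actb 2.93 times, that of Ppia 1.87 times and that of Tuba1b 1.18 times. No p-value was computed, because each kidney side has 1 array. Spots of a gene share the probe, the RNA pool, the labelling and the array, so their SD holds spot noise and no variation between mice or preparations.

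Differences of at least 1.1-fold were common on these arrays, and differences as large as that of Hsp90ab1 were less so. At least 1.1-fold higher on the left were 2 of the 4 genes, Hsp90ab1 and Actb, against 27.5% of 35367 probes above background on both arrays. Bright probes, here the 2612 of these whose log2 signal averaged over the 2 arrays was at least 14, are nearer to the 4 genes in brightness. Of these, 24.7% passed the same limit on the left. A difference above 0 was found in 4 of the 4 genes, in 52.5% of all probes and in 70.6% of bright ones. A larger left minus right difference than that of Hsp90ab1 was found in 13.8% of all and 6.36% of bright probes. For Actb these shares were 20.1% and 13.5%, for Ppia 35.5% and 38.8%, and for Tuba1b 40.4% and 48.7%. The cyclophilin and the alpha-tubulin gene thus lay near the middle of the bright probes, whose median was 0.06 with quartiles of -0.01 and 0.14. Nearly all those probes have 1 spot, so their spread also holds the noise of single spots.

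Among the 14 genes with replicate spots above background, Hsp90ab1 had the highest left minus right difference and Actb the next, followed by Gusb (0.10), G6pd2 (0.10), Rpl13a (0.10) and then Ppia in place 6. Tuba1b came in place 8. The differences of the 10 genes of this kind outside the folding and cytoskeleton set ran from -0.12 (Tfrc) to 0.10 (Gusb). The differences of Hsp90ab1 and Actb were each higher than that of 10 of these 10 genes, Ppia's than 7 and Tuba1b's than 6. Closest to Ppia were Rpl13a, G6pd2 and Gusb, within 0.02 of it, and closest to Tuba1b were Gk, Tbp and Gapdh, within 0.03. The nearest to Hsp90ab1 and to Actb were Gusb, G6pd2 and Rpl13a, and these lay at least 0.16 and 0.09 away. Likeness here means a similar difference between 2 arrays, and no more.

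**Figure D3:**
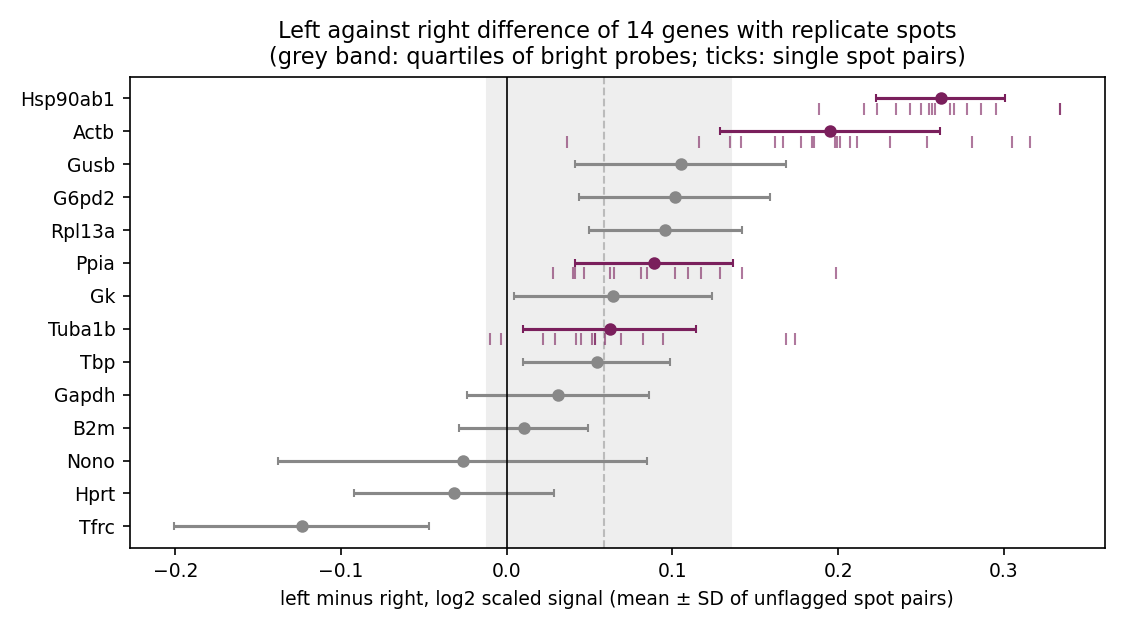
Left minus right difference on the log2 scale for 14 genes with replicate spots, as mean and SD over unflagged spot pairs, with the 4 genes in purple and their single pairs as ticks; the grey band spans the quartiles of bright probes and the dashed line is their median. Hsp90ab1 and Actb lie at 0.26 and 0.20, to the right of the band, and Ppia and Tuba1b lie inside it at 0.09 and 0.06.

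Ratios between the 4 genes within an array do not depend on the factor by which each array is scaled. The ratio of Hsp90ab1 to Tuba1b was 1.15-fold higher on the left than on the right (log2 0.20 ± 0.07, SD of single spot pairs of both genes combined). The ratio of Hsp90ab1 to Ppia was 1.13-fold higher on the left (0.17 ± 0.06). The log2 ratio of Actb to Tuba1b was higher on the left by 0.13 ± 0.08, and that of Actb to Ppia by 0.11 ± 0.08. Each of these 4 ratios was beyond 1 SD from 0. Those of Hsp90ab1 were also beyond it under every alternative run, and those of Actb were not. Actb to Ppia was 0.09 ± 0.10 with normexp and 0.11 ± 0.15 with flagged spots kept, and Actb to Tuba1b 0.15 ± 0.16 with flagged spots kept. The remaining 2 ratios, Hsp90ab1 to Actb (0.07 ± 0.08) and Ppia to Tuba1b (0.03 ± 0.07), lay within their SDs. These SDs describe single spot pairs and not the means, so lying within them does not mark a ratio as equal on both sides. Used as reference genes on these arrays, Actb and Tuba1b would give left against right values for any other gene that differ by 0.13 on the log2 scale.

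The size of the left minus right difference depended on the normalization for all 4 genes, and its sign for Tuba1b. Cyclic loess, which removes trends with brightness, gave 0.19 for Hsp90ab1, 0.13 for Actb, 0.02 for Ppia and -0.01 for Tuba1b. With quantile normalization the values were 0.17, 0.12, 0.04 and 0.01, and with median scaling 0.31, 0.24, 0.14 and 0.11. Median scaling moved the median of all tested probes from 0.01 to 0.06. The order Hsp90ab1, Actb, Ppia, Tuba1b was the same under each of these settings. Taking the other 10 replicated genes as the common scale, an alternative added after seeing the data, gave 0.23, 0.17, 0.06 and 0.03.

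**Figure D4:**
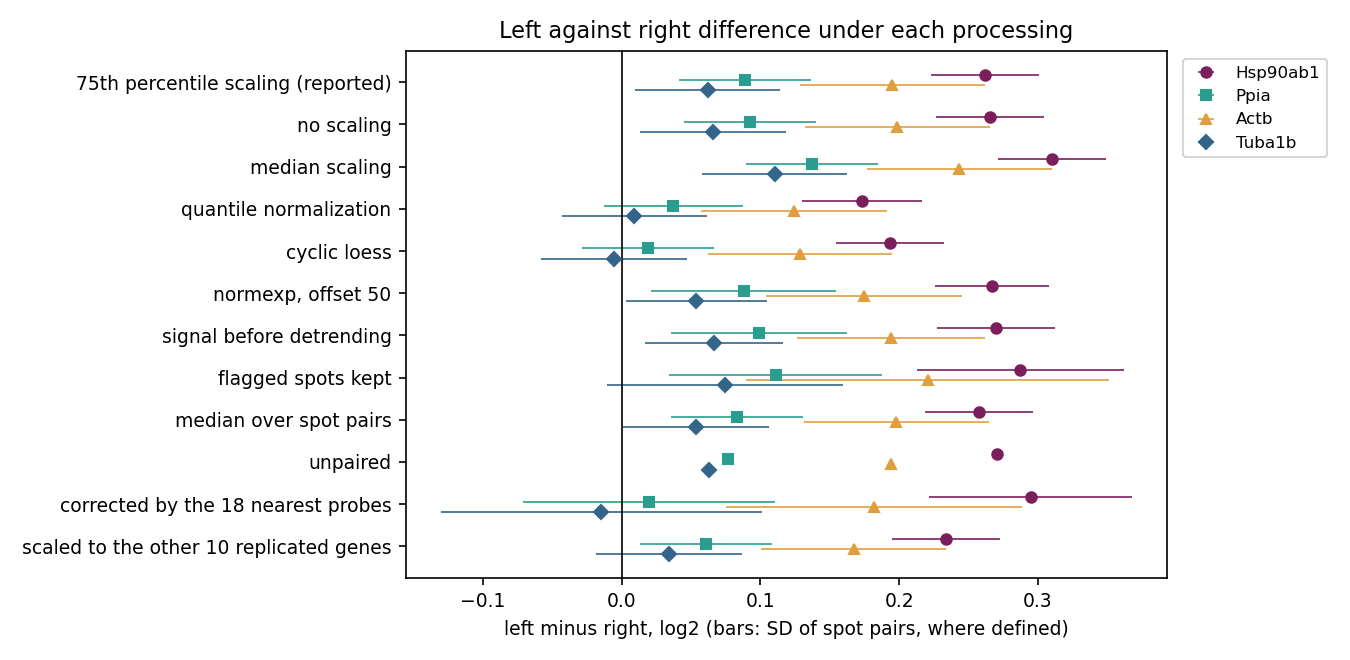
Left minus right log2 difference of each gene (marker shape and colour) under each processing, with SD bars over spot pairs where defined. Hsp90ab1 stays between 0.17 and 0.31 and Actb between 0.12 and 0.24, while Tuba1b crosses 0 with cyclic loess and with correction by the nearest probes.

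Spots of 1 gene show how far a value resting on 1 spot per array can stray, here for bright probes. Over the 14 replicated genes above background, the SD of spot pairs ran from 0.04 to 0.11 with a median of 0.06. For Ldhal6b, which was not above background, it was 0.88. A single unflagged pair would have given Hsp90ab1 a fold between 1.14 and 1.26, Actb between 1.03 and 1.24, Ppia between 1.02 and 1.15 and Tuba1b between 0.99 and 1.13. With flagged pairs kept, the log2 difference of single Actb pairs ran from 0.04 to 0.70 and that of Hsp90ab1 pairs from 0.19 to 0.53. The spread within an array was larger on the right for all 4 genes. The coefficient of variation of unflagged spots on the left and right array was, in turn, 1.27% and 3.08% for Hsp90ab1, 2.25% and 3.56% for Ppia, 3.24% and 3.99% for Actb and 1.83% and 3.48% for Tuba1b. With all 20 spots the right array reached 7.99% for Actb and between 4.82% and 5.06% for the other genes.

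The right array had a low tail. There, 16 of the 80 spots were below 95% of their gene's median there, against 4 of 80 on the left. Flagged spots were counted here, and 5 of the 16 right and 1 of the 4 left low spots were flagged. Of the 16 low spots, 2 belonged to Hsp90ab1, 4 to Ppia, 5 to Actb and 5 to Tuba1b. The lowest was a flagged Actb spot at row 213 and column 152, at 69.1% of the gene's right median and 98.9% of its left median. Low spots lay near each other: 10 of the 16 had any other spot of the 4 genes within 5% of the array's width, and 9 had a low spot of another of these genes there. Of the 64 right spots that were not low, 40 had another spot of the 4 genes within that distance and 4 had a low one. On the left array only 1 of the 4 low spots had another spot within that distance, too few for such a comparison.

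Such groups lay in a few places on the right array. At row 331 and column 93 a flagged Hsp90ab1 spot stood at 83.0% of its gene's median. Beside it, Ppia spots at row 328, column 94 (flagged) and at row 331, column 97 (not flagged) stood at 86.3% and 89.3%. At row 129, column 56 an Actb spot stood at 92.7%, and a Tuba1b spot at row 133, column 57 at 92.4%. An Actb spot at row 90, column 88 and a Tuba1b spot at row 100, column 86 stood at 92.6% and 92.2%. On the left array each of these 7 spots stood between 96.8% and 101.6% of its gene's median. The deviation of a pair's difference from its gene's mean followed the median difference of the 18 nearest other probes, with Pearson's r of 0.51 and Spearman's rho of 0.46 over 64 unflagged pairs of the 4 genes. This is a description of spots that share 2 arrays.

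**Figure D5:**
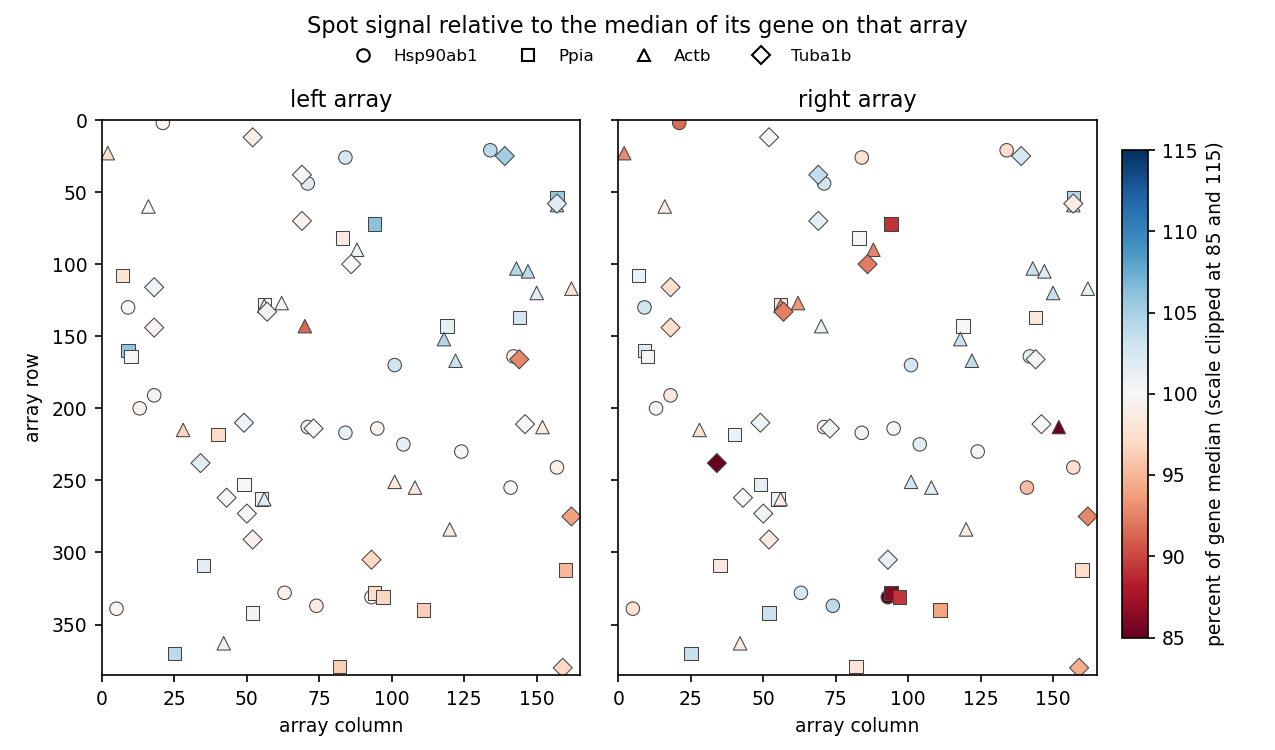
Position of the 80 spots by array row and column on the left and right array, with shape for the gene and colour for the spot's signal as a percentage of its gene's median on that array (scale clipped at 85 and 115). The right array has 16 spots below 95%, several of them close to low spots of another gene, and the left array has 4.

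Subtracting the median difference of the 18 nearest probes from each pair gave 0.29 ± 0.07 for Hsp90ab1, 0.18 ± 0.11 for Actb, 0.02 ± 0.09 for Ppia and -0.01 ± 0.12 for Tuba1b. The correction widened the spot SD of all 4 genes, to between 160.4% and 220.9% of its former value. The difference of Hsp90ab1 differed little between parts of the array. It was 0.27 in the first and 0.26 in the last 192 rows, and 0.24 and 0.28 in the first and last 82 columns. Ppia stood at 0.09 in either set of rows, Actb at 0.21 and 0.17, and Tuba1b at 0.08 and 0.05. By columns, first and last, Ppia stood at 0.07 and 0.11, Actb at 0.21 and 0.19, and Tuba1b at 0.06 and 0.07. The part that position on the slide has in any left against right difference cannot be told apart from the side, since each side has 1 array.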

How the data were processed

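RNA of left and right mouse kidney pools was hybridised to 1 array each. Labelled cRNA was made by random priming after removal of ribosomal RNA, per the labels' protocols. Per the submitters' processing notes, the tool that read the images was Agilent Feature Extraction 11.0.1.1. The deposited intensity values are, per the file headers, background-subtracted and detrended within an array. The authors' series table holds the same values for all 62513 spots. No normalization between arrays was applied by that software, per the file headers.

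From these, log2 processed signal minus each array's 75th percentile over transcript spots was computed. Controls, probes named negative and spots with an outlier flag were left out, and spots were paired by position. Background-subtracted signals before detrending and the software's error estimates were also read. The genes, lists and limits (95% of a gene's median, 5% of the width, log2 of 14, 1.1-fold) were chosen with earlier results of these data known. The genes named are the 4 members in full, and the 3 replicated genes with the closest difference to each. Symbols came from RefSeq accessions without version, for 116 of 123 probes. The accession version differed from the table's for Ppia and Actb. No genome coordinates are given, since the array grid and the gene table name different builds.

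Alternatives were no scaling, scaling to the median, cyclic loess and quantile normalization, normexp (offset 50, on median signals), flagged spots kept, medians, unpaired means and correction by the 18 nearest tested probes. Signal before detrending, scaling to the other replicated genes and the ratios were added after seeing the data. The calculations were tested on simulated data. There the correction by the nearest probes narrowed the spot SD, while in the real data it widened it, so that test does not cover this correction here. Normalization used limma 3.58.1 in R 4.3.3. All else used Python 3.11.15 with pandas 2.3.3, numpy 2.4.6, matplotlib 3.10.9 and scipy 1.17.1. The number of arrays limits the precision.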

Additional observations from a re-analysis of the deposited data

How the results depend on the processing

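Hsp90ab1 and Actb were higher on the left under all 11 alternatives run for each, with ranges of 0.17 to 0.31 and 0.12 to 0.24. Ppia ranged from 0.02 to 0.14 and Tuba1b from -0.01 to 0.11. Changes beyond each gene's own SD of single spot pairs were as follows. Median scaling gave 0.310 for Hsp90ab1 and 0.137 for Ppia. It moved all 4 genes by the same amount, but Actb (0.243) and Tuba1b (0.110) have larger spot SDs. These SDs are not the precision of a mean, so a gene missing from this list was not thereby less affected. Quantile normalization gave 0.173 for Hsp90ab1, 0.124 for Actb, 0.037 for Ppia and 0.0091 for Tuba1b. Cyclic loess gave 0.193 for Hsp90ab1, 0.019 for Ppia and -0.0057 for Tuba1b, and correction by the nearest probes 0.020 for Ppia and -0.015 for Tuba1b. Tuba1b thus turned negative under those last 2 settings. The cause was not tested. The other 33 of 44 alternative values moved by less than the spot SD, Actb with cyclic loess (0.129) only just. Part of this was fixed in advance. A median over spot pairs cannot lie further than that from their mean, and leaving out the scaling shifted every gene by the same small amount. Ranks stayed within the range of unflagged spots in 24 of 24 alternative values. Those from medians over the same unflagged spots were all but bound to do so. The 6 ratios between genes kept their direction in 36 of the 36 alternative values that could differ (array scaling cannot alter a ratio), and 2 moved beyond their SD, both with correction by the nearest probes: Hsp90ab1 over Ppia to 0.275 and Hsp90ab1 over Tuba1b to 0.309. No paired analysis was possible because each side has 1 array, and leaving out an array leaves no comparison.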

Other observations

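Outlier flags fell on 18 of the 160 spot readings of the 4 genes, 12 on the left and 6 on the right, out of 34 and 20 flagged transcript spots on the whole arrays. Of those 34 and 20 spots, 29 and 16 belonged to the 15 genes with replicate spots. The 4 genes, of these 15 with 20 spots each, held 12 of the 29 and 6 of the 16. Whether they are flagged more often than the other genes was not tested. All 18 were flags for departing from the other spots of the same probe, and none was for an uneven spot. Only probes with replicate spots can carry such a flag, so its place among these 15 genes was fixed in advance. Before detrending, 16 of these 18 readings lay below and 2 above all unflagged spots of their gene on that array. A place outside that range follows from what the flag marks and is no separate finding. In the processed signal 5 lay inside the unflagged range, 6 below it and 7 above it. Of the 12 flagged left readings, 10 were below the unflagged range before detrending and 1 after it, while 7 were above it after detrending. All 6 flagged right readings were below it before detrending and 5 after it. Leaving flagged spots out therefore removed readings from both ends of the processed left signal and from the low end of the right one. With them kept, the difference was 0.29 ± 0.07 for Hsp90ab1, 0.22 ± 0.13 for Actb, 0.11 ± 0.08 for Ppia and 0.07 ± 0.09 for Tuba1b (SD, 20 pairs each).

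The scanner software gave an error of 10% of the signal for spots of each of the 4 genes, on both arrays. The coefficients of variation measured over their unflagged spots, 1.27% to 3.99%, were all below that figure, as were those over all spots, 1.44% to 7.99%. These coefficients hold only the scatter of spots that share a probe, an RNA pool and an array, so they do not test the software's figure.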
